A study of Homo sapiens with 12 samples.

Results

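The 46 DNA repair and replication checkpoint genes described here are the genes of homologous recombination, the Fanconi anaemia crosslink pathway, end resection, mismatch repair, the checkpoint kinases and their mediators, and the proteins that mark breaks or coat single-stranded DNA. They were found by Entrez gene number among the 25702 genes of the count table. Symbols were linked to these numbers through the deposited table of log2 values for 32 members and through RefSeq for the other 14. In the table of log2 values MRE11 and H2AX carry their older symbols MRE11A and H2AFX. All 46 were found and all 46 were tested. Each had at least 1 cpm (counts per 1e6 counts of the library) in every library, and the lowest count of a member in any library was 17.

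RNA was sequenced from WI-38 cells, a diploid lung fibroblast line, in 4 conditions of 3 flasks. D1 was untreated and D1+ TGF-β was given TGF-β at 2 ng/mL, with RNA taken on day 1, at passages 2 to 3. D20 and D20+ TGF-β were kept for 20 days without or with the cytokine and were at passages 5 to 6. Cells were confluent when treatment began. The study's methods state that the day 20 flasks were seeded on day 1 from 1 treated and 1 untreated flask. The 3 flasks of a day 20 condition therefore share a parent flask, and treatment and parent flask cannot be told apart on day 20. In all conditions the p-values below measure only the spread between flasks. Day, passage and reseeding cannot be told apart in these data.

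Library totals ran from 8674488 to 18286197 counts. Summed over a library, the 10 fibroblast markers reached 22722 to 54024 cpm. Of the markers of other cell types, KRT5, CDH5, CD3E and LYZ had no count in any library, and EPCAM reached at most 0.52, PTPRC 0.19 and PECAM1 0.30 cpm. Others in the same lists were expressed: KRT18 reached 40, KRT19 26.7 and KRT8 15.8 cpm in the epithelial list of 8, CD68 61.9 and CD14 6.12 cpm in the leukocyte list of 6, and TEK 242 cpm in the endothelial list of 6. The summed levels ran from 36.7 to 62.8, from 37.7 to 62.1 and from 34.9 to 244 cpm, and their part in the results was not tested. Flask 3 of D20+ TGF-β stood apart from the other two of its condition. A list of 24 mitosis genes summed there to 1100.5 cpm, against 718 and 677 cpm, and that flask was the highest of the 3 for 32 of the 46 members, where the share over all genes tested was 38.9%. In RNA from whole flasks, fewer cells expressing a gene and less of its RNA per cell cannot be told apart.

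Homologous recombination copies an intact sister chromatid to mend a broken one. The break is first trimmed to single strands by end resection, RPA coats the strand, and BRCA2 with its partners loads the recombinase. The Fanconi anaemia pathway deals with crosslinks that block forks: its core complex and the E2 enzyme UBE2T attach ubiquitin to FANCD2 and FANCI, and USP1 takes it off again. ATR with its effector CHEK1 slows the cycle when forks stall, while ATM and CHEK2 respond to breaks. As general background, many of these genes are transcribed most around the start of S phase, through E2F sites, and are low in cells that do not divide, whereas others are made at all times.

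Promoter letters bear on this background, so the windows of 6 members are shown: the 3 with the largest fall from D1 to D20 that hold one of the motifs searched (CLSPN, BLM and FANCD2) and the 3 with the smallest change (PMS2, FANCF and FANCC). The letters are from RefSeq on GRCh38.p14 and were placed by an exact match on GRCh37, the build of the files. Each starts 110 or 250 bases before the transcription start and ends 10 bases after it, read along the gene. Capitals mark an E2F-like motif, given as TTTCCCGC, TTTGGCGC, TTTCGCGC or TTTGCCGC on either strand, or a cell cycle homology region, given as TTTGAA or TTTAAA on either strand.
CLSPN, chr1:36235570-36235689, minus strand: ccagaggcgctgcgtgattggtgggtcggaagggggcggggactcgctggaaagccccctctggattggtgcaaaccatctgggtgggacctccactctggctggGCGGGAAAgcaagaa
BLM, chr15:91260327-91260586, plus strand: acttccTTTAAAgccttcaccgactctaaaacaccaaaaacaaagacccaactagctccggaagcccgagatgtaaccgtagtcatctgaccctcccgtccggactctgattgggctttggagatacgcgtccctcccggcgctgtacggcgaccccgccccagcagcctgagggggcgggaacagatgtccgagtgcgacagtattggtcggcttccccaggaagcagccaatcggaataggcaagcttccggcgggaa
FANCD2, chr3:10068011-10068130, plus strand: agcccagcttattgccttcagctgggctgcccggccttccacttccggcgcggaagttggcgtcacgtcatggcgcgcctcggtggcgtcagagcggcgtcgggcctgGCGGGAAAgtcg
PMS2, chr7:6048728-6048847, minus strand: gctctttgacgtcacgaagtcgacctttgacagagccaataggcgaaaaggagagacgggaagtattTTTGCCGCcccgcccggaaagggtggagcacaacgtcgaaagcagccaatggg
FANCF, chr11:22647360-22647479, minus strand: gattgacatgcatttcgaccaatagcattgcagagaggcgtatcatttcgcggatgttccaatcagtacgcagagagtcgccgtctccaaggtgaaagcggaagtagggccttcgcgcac
FANCC, chr9:98079982-98080241, minus strand: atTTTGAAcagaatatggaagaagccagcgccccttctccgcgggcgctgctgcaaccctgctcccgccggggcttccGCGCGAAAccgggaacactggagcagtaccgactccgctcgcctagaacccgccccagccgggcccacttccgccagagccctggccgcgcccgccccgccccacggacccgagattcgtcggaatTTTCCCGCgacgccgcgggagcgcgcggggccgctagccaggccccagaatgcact

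CLSPN and FANCD2 carried the same E2F-like letters within a few bases of the transcription start. A motif was required of the 3 members that fell, so its presence in their windows was fixed by the choice. RAD54L fell more than BLM, and RAD51AP1 more than FANCD2, and their windows held neither motif. On GRCh37 the genes themselves span chr1:36185819-36235579 (CLSPN), chr15:91260577-91359396 (BLM) and chr3:10068054-10143616 (FANCD2). PMS2 and FANCC, which did not fall, also held the motif, and the FANCF window held no letters of either kind. A window from 250 bases before to 50 after the start was held for 40 of the 46 members, those other than RAD54B, FANCI, NBN, RMI2, RPA2 and RPA3. The E2F-like motif occurred in 11 of the 40, or 27.5%, against 6.61% of the tested genes with a window and 3.99% of all genes with one. It was held by 9 of the 28 members that were lower in D20 than in D1 and by 2 of the 12 others. When the window ended at the transcription start this order turned round, with 3 of the 28 and 2 of the 12. The cell cycle homology region occurred in 8 of the 40, or 20.0%, against 21.8% of the tested genes. These are letter matches in a fixed window and say nothing of factor binding.

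The first question was how the members stood after 20 days of culture without TGF-β. In D20 vs D1, 32 of the 46 members were lower at an adjusted p under 0.01 by edgeR's quasi-likelihood test, beside 15.5% of all genes tested, and the other 14 were not called (background for higher genes, 16.4%, and for either direction, 31.9%). The flasks did not overlap for 37 lower members, beside 24.6% of all genes, and 1 higher member, beside 28.0%. The median log2 fold change of the members was −0.74, against 0.02 over the 13568 genes tested. Without D20+ TGF-β flask 3 in the fit, 34 were lower and 1 higher. Of the 32, 20 fell by more than 1 on the log2 scale and 9 by more than 2. The share of all genes past these cut-offs was not counted. The fall was steepest in the fork mediator CLSPN, the recombination genes RAD54L and RAD51AP1, the helicase BLM and the Fanconi protein FANCD2. Genes of upstream sensors went both ways: ATM, RAD50 and NBN were not called, while ATR and PARP1 were called lower. Fold changes of all members in both time comparisons are plotted by role.

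**Figure D1:**
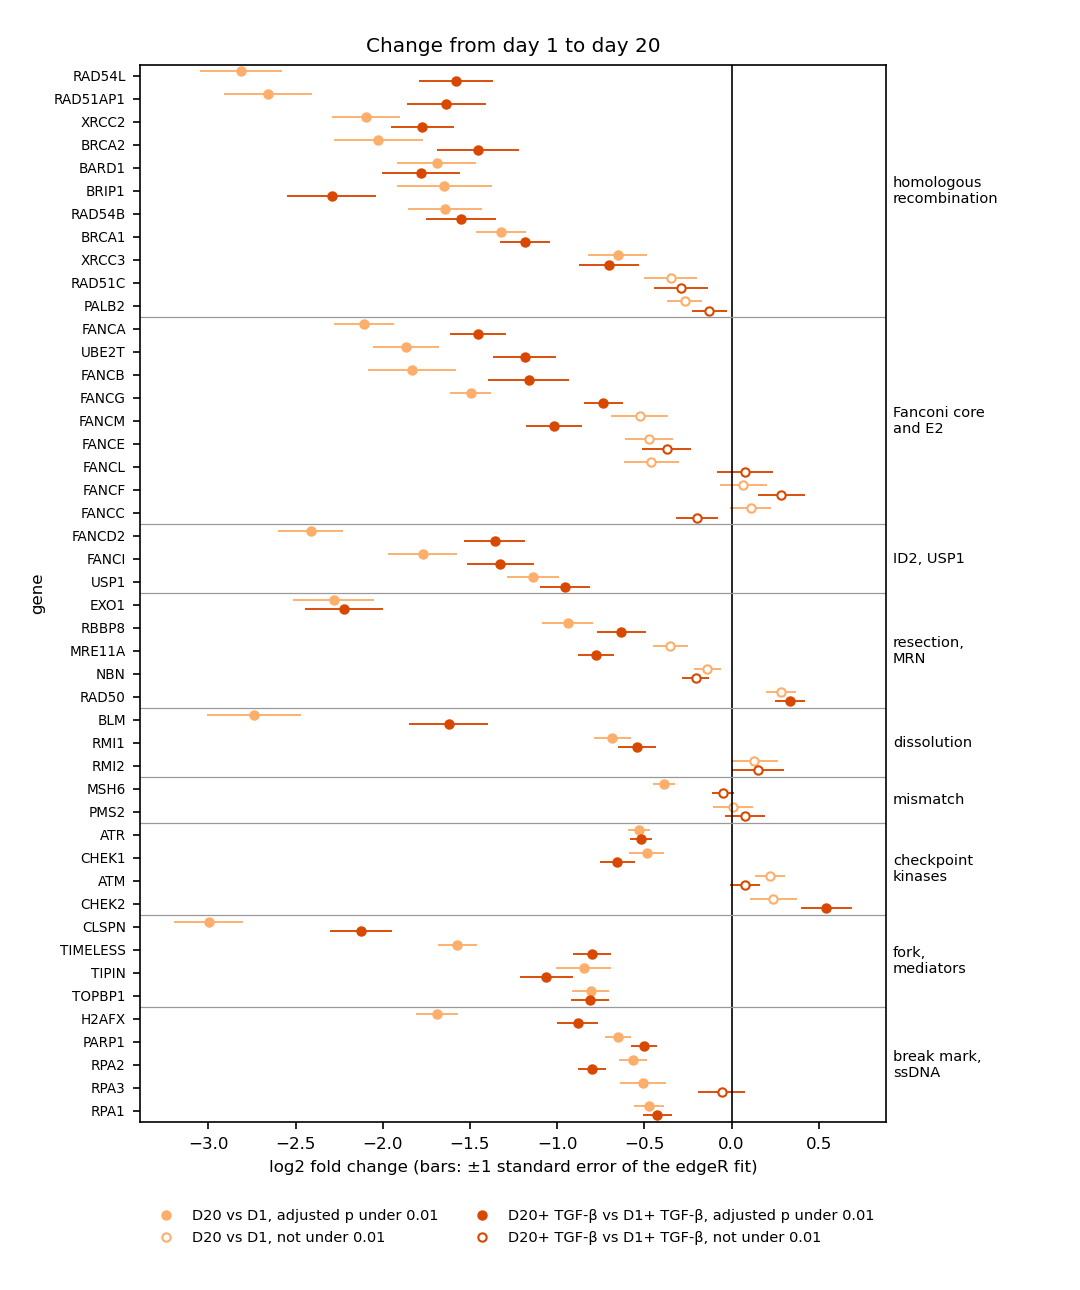
Log2 fold change (horizontal axis) of each of the 46 members, grouped by role and ordered within a role by its change without TGF-β, for D20 vs D1 (light points) and D20+ TGF-β vs D1+ TGF-β (dark points), with bars of 1 standard error of the edgeR fit; filled points had an adjusted p under 0.01. The points reach −3.0 for CLSPN without TGF-β and −2.29 for BRIP1 with it, and RAD50, CHEK2, ATM, RMI2, FANCF and PMS2 lie above 0 in both comparisons.

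In homologous recombination 9 of 11 members were lower in D20 than in D1, with a median log2 fold change of −1.65. RAD54L, a motor protein that helps the recombinase invade the sister strand, was at 9.85, 10.2 and 11 cpm in the D1 flasks and at 1.60, 1.55 and 1.31 cpm in D20. The groups were far from overlapping, and the log2 fold change was −2.81 ± 0.23 (SE; adjusted p = 4.45e-07, edgeR). RAD51AP1, which binds the recombinase and stimulates pairing, went from 13.2, 19.3 and 16.9 cpm to 3.20, 2.73 and 2.08 cpm, a log2 fold change of −2.66. BRCA2, the loader of the recombinase, went from 17.2, 29.4 and 17 cpm to 6.31, 4.79 and 4.81 cpm, a log2 fold change of −2.03. XRCC2, a recombinase paralogue, fell by 2.09, BARD1, the partner of BRCA1, by 1.69, RAD54B by 1.64 and BRCA1 by 1.32 on the log2 scale. BRIP1, the BRCA1-associated helicase, was at 12.1, 22.4 and 17.5 cpm in D1 and at 6.96, 5.38 and 4.64 cpm in D20, a log2 fold change of −1.65. The paralogue XRCC3 changed least of the 9, with a log2 fold change of −0.65 (adjusted p = 0.00544, edgeR), and was no longer called when D1 flask 1, D20 flask 2 or D20 flask 3 was left out, with an adjusted p of at most 0.0316 over the alternatives. PALB2, the bridge between BRCA1 and BRCA2, stood at 16.2, 16.8 and 17.2 cpm in D1 and at 15.3, 12.5 and 13.9 cpm in D20. All D20 flasks were below all D1 flasks, but the difference of −0.27 ± 0.10 had an adjusted p of 0.0403 (edgeR) and was not called, and neither was that of the paralogue RAD51C, at −0.35.

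The Fanconi anaemia core complex was split. FANCA, UBE2T, FANCB and FANCG were lower in D20, with log2 fold changes of −2.11, −1.87, −1.83 and −1.50, while FANCM, FANCE, FANCL, FANCF and FANCC were not called, with log2 fold changes between −0.53 and 0.11. FANCA, a scaffold of the complex, was at 17.6, 19.8 and 18.9 cpm in D1 and at 4.99, 4.42 and 3.80 cpm in D20, so the groups did not overlap. FANCF, the adaptor that joins the parts of the complex, was at 7.22, 9.10 and 9.86 cpm in D1 and at 8.94, 9.50 and 9.03 cpm in D20. The 3 D20 flasks lay inside the range of the D1 flasks. FANCL, the ubiquitin ligase of the complex, had a log2 fold change of −0.46 ± 0.16 (adjusted p = 0.0289, edgeR). FANCL and FANCM were called without D1 flask 1, and FANCE without D20+ TGF-β flask 2 or 3.

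The genes of FANCD2, FANCI and USP1 were all lower in D20. FANCD2 was at 25.1, 31.1 and 26.2 cpm in D1 and at 6.49, 4.64 and 4.58 cpm in D20, a log2 fold change of −2.41 ± 0.19 (adjusted p = 2.64e-07, edgeR). Its partner FANCI had a log2 fold change of −1.77. USP1, the enzyme that removes their ubiquitin, was at 33.0, 46.7 and 48.8 cpm in D1 and at 19, 18.7 and 20.6 cpm in D20, a log2 fold change of −1.14. The D1 and D20 flasks of all 3 genes were apart.

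End resection and the MRN complex, which senses broken ends, did not move as a group. EXO1, the long-range exonuclease, was at 10.8, 13.7 and 12.5 cpm in D1 and at 2.26, 2.87 and 2.44 cpm in D20, a log2 fold change of −2.28 ± 0.23 (adjusted p = 2.89e-06, edgeR). RBBP8, which encodes the resection factor CtIP, went from 24.2, 28.9 and 28.8 cpm to 15.9, 13.2 and 13.8 cpm, a log2 fold change of −0.94. Both genes had D20 flasks below every D1 flask. The MRN genes were not called: NBN was at 66.5, 78.1 and 74.8 cpm in D1 and at 70.4, 66.1 and 63.2 cpm in D20, with overlapping groups, MRE11A differed by −0.35 (adjusted p = 0.0112, edgeR) and RAD50 by 0.29 (adjusted p = 0.0131, edgeR). RAD50 was at 71.0, 80.7 and 78.8 cpm in D1 and at 95.4, 90.5 and 95.0 cpm in D20, so its D20 flasks were above all D1 flasks. It was called higher without D1 flask 2 or D20+ TGF-β flask 2 or 3, and MRE11A lower without D1 flask 1 or D20+ TGF-β flask 3.

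Of the dissolution genes, whose products untangle joined chromatids, BLM had a log2 fold change of −2.74 ± 0.27 (adjusted p = 2.03e-06, edgeR), from 8.66, 11.3 and 11.1 cpm in D1 to 2.07, 1.47 and 1.25 cpm in D20. RMI1, its scaffold, fell by 0.68 on the log2 scale. The third subunit, RMI2, was at 8.58, 8.71 and 6.80 cpm in D1 and at 9.13, 8.91 and 8.44 cpm in D20, with overlapping groups. In mismatch repair, MSH6, which recognises mispaired bases, was at 74.3, 76.5 and 74.0 cpm in D1 and at 56.2, 57.1 and 58.6 cpm in D20, a small and tight difference of −0.39 ± 0.06 (adjusted p = 0.000217, edgeR). PMS2, which nicks the strand to be corrected, was at 12.8, 12.0 and 13.3 cpm in D1 and at 13.5, 12.4 and 12.7 cpm in D20. Its log2 fold change of 0.01 ± 0.11 was the smallest of the members.

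The checkpoint kinases changed little beside their mediators. ATR was at 65.0, 64.0 and 67.9 cpm in D1 and at 47.5, 44.3 and 44.5 cpm in D20, a log2 fold change of −0.53 ± 0.06 (adjusted p = 1.31e-05, edgeR), and CHEK1 fell by 0.49. ATM was at 143, 173 and 144 cpm in D1 and at 182, 170.4 and 183 cpm in D20. The ATM groups overlapped and neither ATM nor CHEK2 was called, with log2 fold changes of 0.22 and 0.24, though ATM was called higher without D1 flask 2. All 4 fork protection genes and mediators fell. CLSPN, the adaptor that lets ATR activate CHEK1, was at 34.9, 41.2 and 36.2 cpm in D1 and at 5.27, 4.79 and 4.16 cpm in D20. Every D20 flask was far below every D1 flask, and the D20 mean was 12.7% of the D1 mean, with a log2 fold change of −3.0 ± 0.20 (adjusted p = 8.17e-08, edgeR). TIMELESS, which keeps the helicase and polymerase together, had a log2 fold change of −1.57 and its partner TIPIN of −0.85. TOPBP1, the activator of ATR, changed least of the 4, from 51.8, 68.1 and 57.1 cpm to 34.4, 35.4 and 31.7 cpm, a log2 fold change of −0.81.

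All 5 genes for break marking and single strand binding were lower in D20. H2AFX, the histone variant that is phosphorylated beside breaks, was at 66.2, 66.7 and 65.3 cpm in D1 and at 22.0, 21.1 and 18.5 cpm in D20, a log2 fold change of −1.69 ± 0.12 (adjusted p = 1.44e-07, edgeR). PARP1, the break sensor that builds ADP-ribose chains, fell by 0.65, RPA2 by 0.56 and RPA3 by 0.51 on the log2 scale. RPA1, the large subunit of the strand-binding complex, went from 96.2, 95.3 and 102 cpm to 71.5, 70.3 and 69.3 cpm, a log2 fold change of −0.47. The RPA1 groups did not overlap. The RPA3 call (adjusted p = 0.00609, edgeR) was lost when D1 flask 3, D20 flask 2 or D20 flask 3 was left out, with an adjusted p of at most 0.0424 over the alternatives.

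Levels per length let the members be set beside each other. Within a gene they are cpm divided by a fixed length, so the changes of a gene are those of its cpm. On the scale of cpm per kilobase of transcript (RPKM), H2AFX was the most abundant member in D1, at 41.5 ± 0.43 (SD, n = 3), followed by PARP1 at 35.9 ± 1.46 and UBE2T at 26.3 ± 4.99. The lowest member was XRCC2, at 1.34 ± 0.17. In D20 PARP1 was highest, at 22.8 ± 0.48, and BLM lowest, at 0.30 ± 0.08, a level that did not differ from the 0.31 ± 0.05 of XRCC2 beyond the spread between flasks. The level of H2AFX in D20 was 31.1% of that in D1, while PMS2 kept 101% and ATM 117%.

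**Figure D2:**
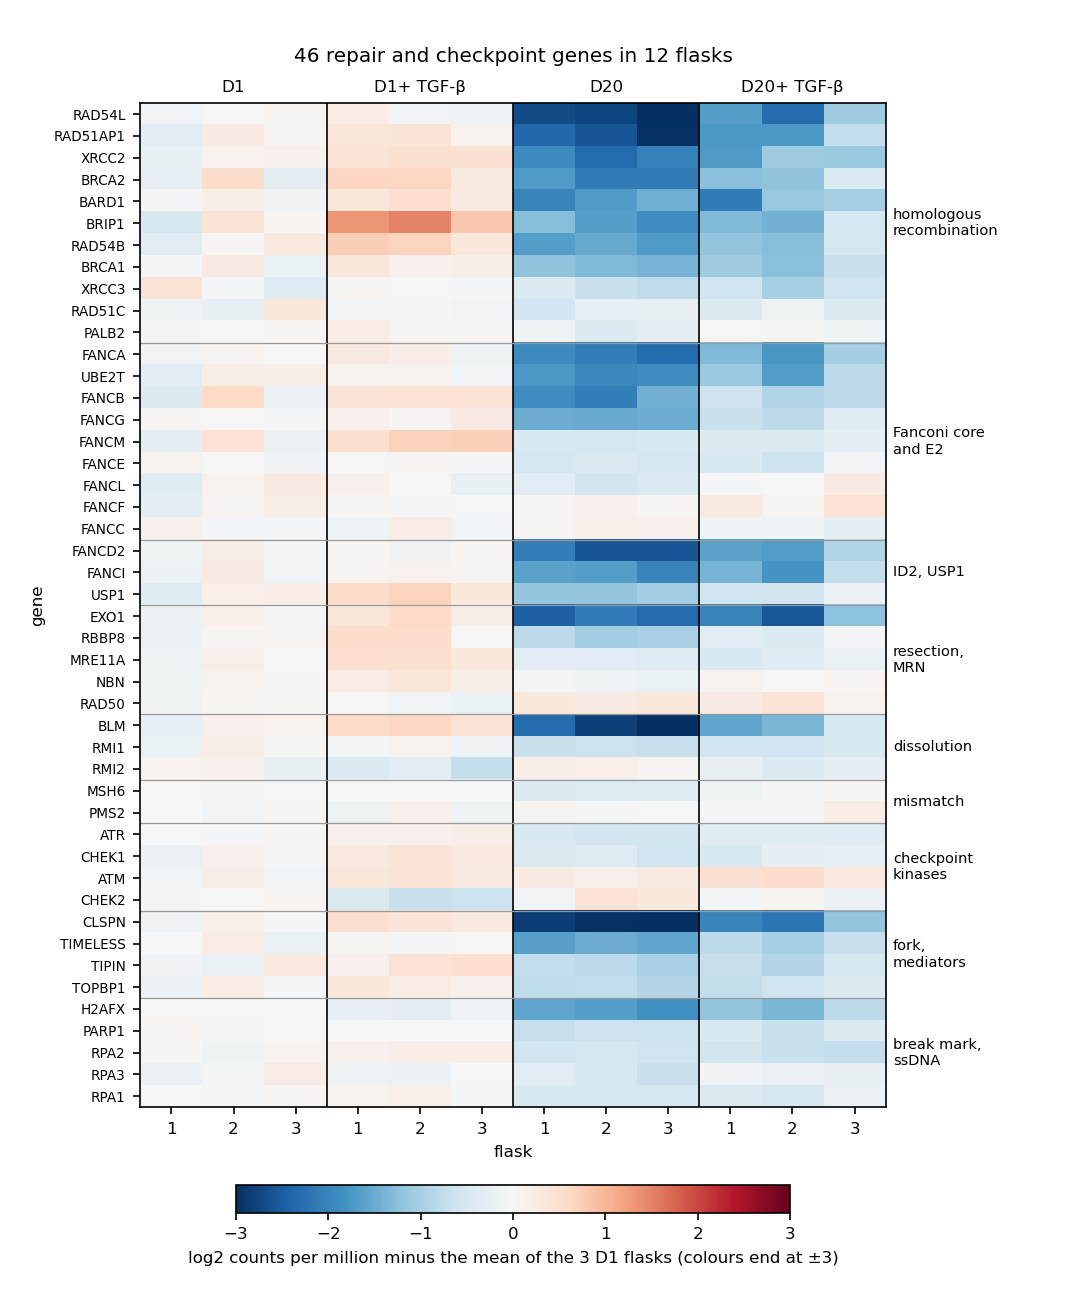
Each row is a member, grouped by role, and each column a flask; colour gives log2 cpm minus the mean of the 3 D1 flasks of that gene, with blue for lower and red for higher values. The D20 columns are darkest for CLSPN, RAD54L, BLM and RAD51AP1, and flask 3 of D20+ TGF-β is paler in these rows than the other two flasks of its condition.

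The same step from day 1 to day 20 was then compared in the presence of TGF-β. For D20+ TGF-β against D1+ TGF-β, 32 of the 46 members were lower, beside 15.2% of all genes tested, and 2 were higher, beside 15.5% (either direction, 30.7%). Flasks without overlap put 35 members lower and 3 higher, beside 28.5% and 29.5% of all genes. The median log2 fold change of the members was −0.79, against 0.03 over all genes tested. This comparison shares no library with D20 vs D1, and 30 members were lower in both. MSH6 and RPA3 were lower only without TGF-β and MRE11A and FANCM only with it; for these 4 the difference between the comparisons is the difference of the TGF-β responses, which had adjusted p-values of 0.0198, 0.116, 0.0538 and 0.164 (edgeR) and was not called for any of them. Fewer members fell steeply than without TGF-β, 18 by more than 1 and 3 by more than 2 on the log2 scale. Again the share of all genes past these cut-offs was not counted.

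BRIP1, EXO1 and CLSPN were the 3 that fell by more than 2. BRIP1 was at 42.1, 47.3 and 29.4 cpm in D1+ TGF-β and at 6.75, 6.31 and 11.6 cpm in D20+ TGF-β, a log2 fold change of −2.29 ± 0.25 (adjusted p = 1.06e-05, edgeR). EXO1 was at 15.8, 18.7 and 13.8 cpm in D1+ TGF-β and at 3.12, 2.10 and 5.26 cpm in D20+ TGF-β, a log2 fold change of −2.22. In both genes the 2 groups were far apart, with flask 3 the highest of the D20+ TGF-β flasks. The 2 members that rose were RAD50 and CHEK2. RAD50 was at 76.9, 73.0 and 67.1 cpm in D1+ TGF-β and at 90.7, 101 and 82.0 cpm in D20+ TGF-β, a log2 fold change of 0.34 ± 0.09 (adjusted p = 0.00555, edgeR). CHEK2 was at 7.76, 6.55 and 6.62 cpm in D1+ TGF-β and at 10.1, 10.9 and 9.29 cpm in D20+ TGF-β, a log2 fold change of 0.54 ± 0.15 (adjusted p = 0.00794, edgeR). Neither pair of groups overlapped, yet both calls rested on single flasks: RAD50 was lost without D1+ TGF-β flask 2 or 3 or D20+ TGF-β flask 1 or 2 (adjusted p at most 0.0352), and CHEK2 without any of the 3 D1+ TGF-β flasks, D1 flask 3, D20 flask 3 or D20+ TGF-β flask 1 or 2 (adjusted p at most 0.0452). XRCC3, RBBP8 and RMI1, with log2 fold changes of −0.70, −0.63 and −0.54, were lost without D1+ TGF-β flask 2. XRCC3 was also lost without D1+ TGF-β flask 1 or 3 or D20+ TGF-β flask 2, and RBBP8 without D1+ TGF-β flask 1 or D20+ TGF-β flask 1 or 2, with adjusted p-values of at most 0.0218 and 0.0173. Without D20+ TGF-β flask 3, 33 members were lower and 2 higher, FANCE being the one added.

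Few members were called for TGF-β on day 1. In D1+ TGF-β vs D1, 2 of the 46 members were called, both higher, beside 5.89% of all genes tested (lower, 5.2%; either direction, 11.1%), and the median log2 fold change of the members was 0.13, against −0.02 over all genes tested. At an unadjusted p under 0.05, 16 of the 46 members were counted, close to the share over all genes tested, 4506 of 13568. Flasks did not overlap for 16 higher and 3 lower members, beside 16.7% and 17% of all genes. BRIP1 was at 12.1, 22.4 and 17.5 cpm in D1 and at 42.1, 47.3 and 29.4 cpm in D1+ TGF-β. The treated flasks were all above the untreated ones, and the log2 fold change was 1.19 ± 0.23 (adjusted p = 0.00231, edgeR). MRE11A, the nuclease of the MRN complex, was at 23.9, 29.9 and 26.9 cpm in D1 and at 38.2, 37.3 and 33.3 cpm in D1+ TGF-β, also without overlap, with a log2 fold change of 0.43 ± 0.10 (adjusted p = 0.00703, edgeR). Others came close to the threshold. CHEK2 differed by −0.59 (adjusted p = 0.0102, edgeR), ATM by 0.34 (adjusted p = 0.0134, edgeR) and FANCM by 0.59 (adjusted p = 0.0149, edgeR), and these were not called.

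These day 1 calls depended on single flasks. Without D1 flask 1, D1+ TGF-β flask 1 or D1+ TGF-β flask 2, 0 members were called, where the adjusted p of BRIP1 reached 0.0220, and without D1 flask 2 there were 7. MRE11A was lost without any 1 of 8 flasks, with an adjusted p of at most 0.0396. Leaving out D20+ TGF-β flask 3, which is not in this comparison but enters the common estimate of the spread, gave 6 calls, 5 higher and CHEK2 lower. Without D1 flask 3, D20 flask 2, D20 flask 3 or D20+ TGF-β flask 2 there was 1. The calls over all genes moved too, from 719 without D1+ TGF-β flask 2 to 2111 without D1 flask 2. D1 flask 2 held 2566 cpm over the mitosis genes, against 1670.5 and 1988 cpm in the other D1 flasks, and the part of this in the member values was not tested.

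By day 20 TGF-β was associated with higher levels of part of the set. In D20+ TGF-β vs D20, 13 of the 46 members were higher, beside 12.0% of all genes tested (lower, 12.8%; either direction, 24.7%), and the other 33 were not called. Flasks did not overlap for 26 higher and 2 lower members, beside 27.7% and 26.5% of all genes. The median log2 fold change of the members was 0.30, against 0.02 over all genes tested, and 0.18 without D20+ TGF-β flask 3. The 13 were spread over the roles: BRCA2, RAD51AP1 and RAD54L in recombination, FANCA and FANCG in the core complex, FANCD2 and USP1 beyond it, RBBP8, BLM, MSH6, CLSPN, TIMELESS and H2AFX. The 4 checkpoint kinases were called neither by edgeR nor by DESeq2. ATM, ATR, CHEK1 and CHEK2 had log2 fold changes of 0.19, 0.16, 0.16 and −0.29, with adjusted p-values of 0.0925, 0.0613, 0.249 and 0.112 (edgeR).

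**Figure D3:**
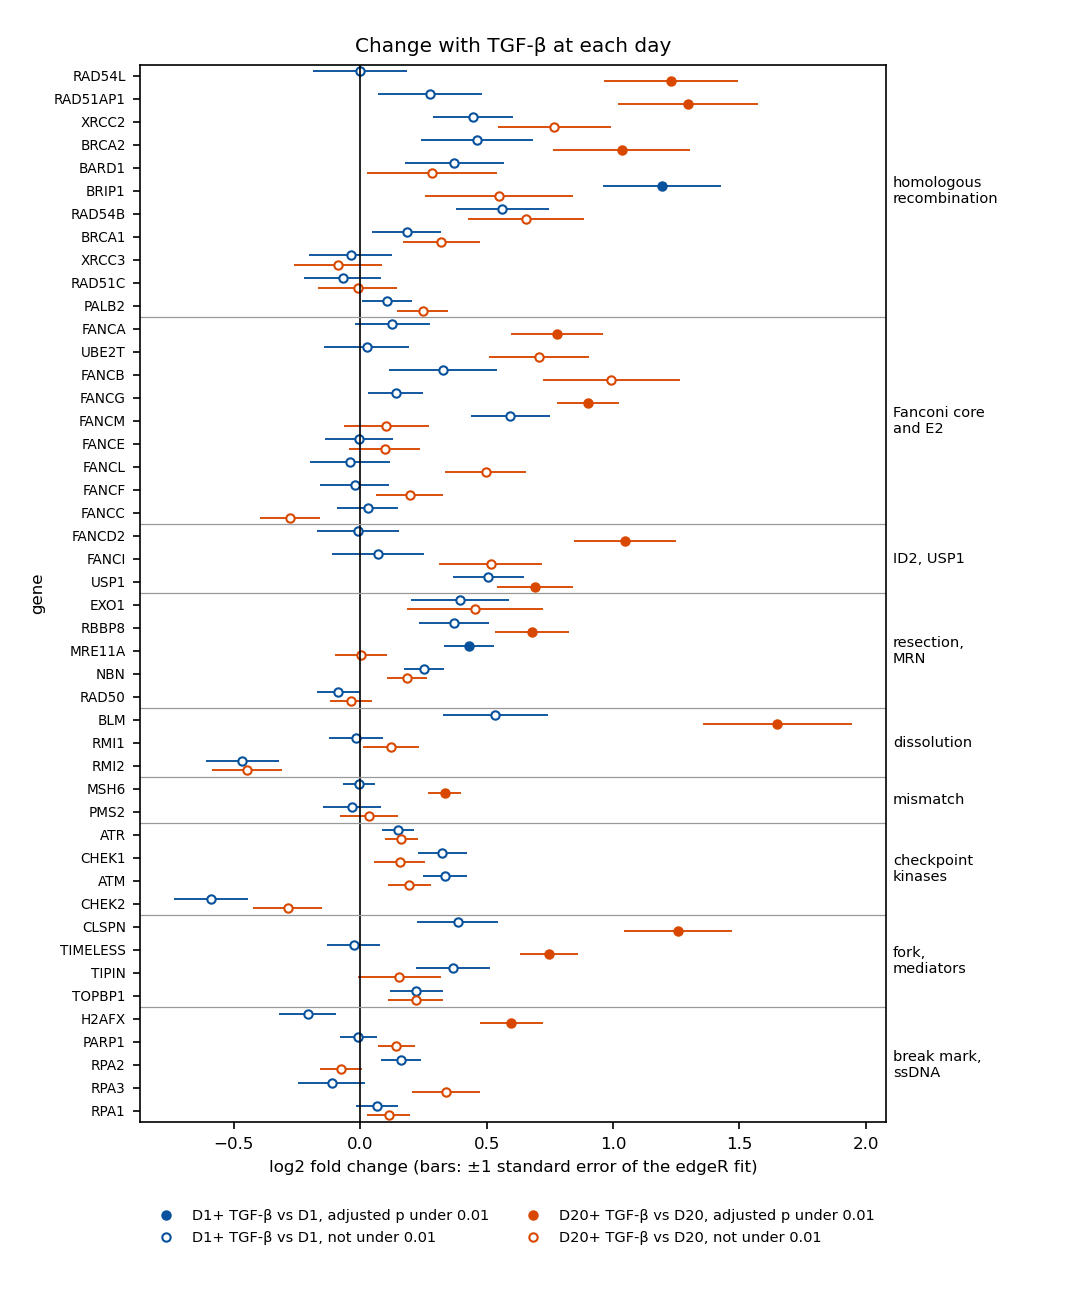
Log2 fold change (horizontal axis) with TGF-β on day 1 (dark blue, D1+ TGF-β vs D1) and on day 20 (orange, D20+ TGF-β vs D20) for each of the 46 members in the order of the plot of time, with bars of 1 standard error of the edgeR fit; filled points had an adjusted p under 0.01. BRIP1 and MRE11A are the filled day 1 points, at 1.19 and 0.43, and the filled day 20 points run from 0.33 for MSH6 to 1.65 for BLM.

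BLM had the largest difference. It was at 2.07, 1.47 and 1.25 cpm in D20 and at 3.51, 4.01 and 7.51 cpm in D20+ TGF-β, a log2 fold change of 1.65 ± 0.29 (adjusted p = 0.000511, edgeR). RAD51AP1 was at 3.20, 2.73 and 2.08 cpm in D20 and at 4.96, 4.91 and 9.76 cpm in D20+ TGF-β, a log2 fold change of 1.30. In both genes the treated flasks were above the untreated ones and flask 3 was well above the other two. CLSPN was at 5.27, 4.79 and 4.16 cpm in D20 and at 9.42, 8.22 and 16.3 cpm in D20+ TGF-β, a log2 fold change of 1.26 ± 0.21 (adjusted p = 0.00037, edgeR). RAD54L was at 1.60, 1.55 and 1.31 cpm in D20 and at 3.29, 2.10 and 4.97 cpm in D20+ TGF-β, a log2 fold change of 1.23. FANCD2 was at 6.49, 4.64 and 4.58 cpm in D20 and at 9.03, 8.62 and 14.6 cpm in D20+ TGF-β, a log2 fold change of 1.05. Here too no flasks overlapped and flask 3 was the highest. BRCA2, at 6.31, 4.79 and 4.81 cpm in D20 and 8.59, 8.82 and 15.2 cpm in D20+ TGF-β, had a log2 fold change of 1.03 ± 0.27 (adjusted p = 0.00759, edgeR).

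The other called members had smaller but often tighter differences. FANCG, an adaptor of the core complex, was at 6.49, 6.41 and 6.48 cpm in D20 and at 11.5, 10.5 and 14.3 cpm in D20+ TGF-β, a log2 fold change of 0.90 ± 0.12 with the lowest adjusted p of the members (5.3e-05, edgeR). TIMELESS was at 13.7, 15.0 and 14.3 cpm in D20 and at 24.6, 21.1 and 26.4 cpm in D20+ TGF-β, a log2 fold change of 0.75. Both were clear of overlap. FANCA went from 4.99, 4.42 and 3.80 cpm to 7.53, 5.61 and 9.20 cpm, a log2 fold change of 0.78. USP1 went from 19, 18.7 and 20.6 cpm to 28.4, 28.7 and 37.6 cpm, a log2 fold change of 0.69, and RBBP8 from 15.9, 13.2 and 13.8 cpm to 21.6, 20.3 and 26.6 cpm, a log2 fold change of 0.68. H2AFX went from 22.0, 21.1 and 18.5 cpm to 28.9, 25.7 and 38.6 cpm, a log2 fold change of 0.60. MSH6 had the smallest difference of the 13, 0.33 ± 0.06 (adjusted p = 0.000977, edgeR), from 56.2, 57.1 and 58.6 cpm to 68.2, 71.6 and 77.1 cpm. In each of these 7 genes all treated flasks were above all untreated ones.

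Flask 3 of D20+ TGF-β bore on the number of calls. Without it 10 members were higher, and BRCA2, FANCA and USP1 were the ones lost. Without D20 flask 3 there were 7, and BRCA2, RAD51AP1, RAD54L, FANCA, RBBP8 and H2AFX were lost. Without D20 flask 2 BRCA2, FANCA, USP1 and RBBP8 were lost, without D20 flask 1 BRCA2 and USP1, without D20+ TGF-β flask 1 FANCA, and without D1+ TGF-β flask 1 or 2 BRCA2, whose adjusted p was at most 0.0384. Over all genes, leaving out 1 flask gave from 2293 calls without D20 flask 3 to 4134 without D1 flask 2. BLM, CLSPN, FANCD2, FANCG, TIMELESS and MSH6 were called under every alternative tried. RMI2 and FANCC had treated flasks below the untreated ones, with log2 fold changes of −0.45 (adjusted p = 0.0202, edgeR) and −0.28 (adjusted p = 0.0801, edgeR), and were not called.

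Whether the response to TGF-β differed between the days was tested directly. The difference of the responses (D20 minus D1) passed the threshold for 3 of the 46 members, all with a larger value on day 20, beside 3.69% of all genes tested (lower, 4.53%; either direction, 8.22%). They were FANCG, at 0.76 ± 0.16 (adjusted p = 0.0056, edgeR), TIMELESS, at 0.77 ± 0.16 (adjusted p = 0.00385, edgeR), and H2AFX, at 0.81 ± 0.17 (adjusted p = 0.00447, edgeR). H2AFX was at 66.2, 66.7 and 65.3 cpm in D1 and at 56.0, 54.8 and 61.0 cpm in D1+ TGF-β. Its treated flasks were below the untreated ones on day 1, a difference that was not called, and above them on day 20. FANCG was at 18.6, 18.4 and 17.7 cpm in D1 and at 19.9, 19 and 21.6 cpm in D1+ TGF-β, and TIMELESS at 41.6, 49.4 and 36.8 cpm and at 43.6, 40.5 and 41.8 cpm. The day 1 groups of TIMELESS overlapped. The number of members called was 0 without D1+ TGF-β flask 2 or D20 flask 3, 1 without D1+ TGF-β flask 1 or D20 flask 2, 4 without D1 flask 2 and 5 without D20+ TGF-β flask 2. It was 2 without D1 flask 1, where FANCG was lost, and without D1+ TGF-β flask 3, where TIMELESS was. Without D20 flask 1 it was also 2, with FANCG and TIMELESS lost and FANCD2 called, and without D20+ TGF-β flask 1 FANCD2 took the place of TIMELESS. The calls over all genes moved as well, from 602 without D1+ TGF-β flask 2 to 1875 without D1 flask 2. Over the alternatives the adjusted p was at most 0.0215 for FANCG, 0.0152 for TIMELESS and 0.0186 for H2AFX. BLM, RAD54L, FANCD2 and RAD51AP1 had larger differences, of 1.12, 1.23, 1.06 and 1.02, with adjusted p-values of 0.048, 0.018, 0.0119 and 0.0564 (edgeR).

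**Figure D4:**
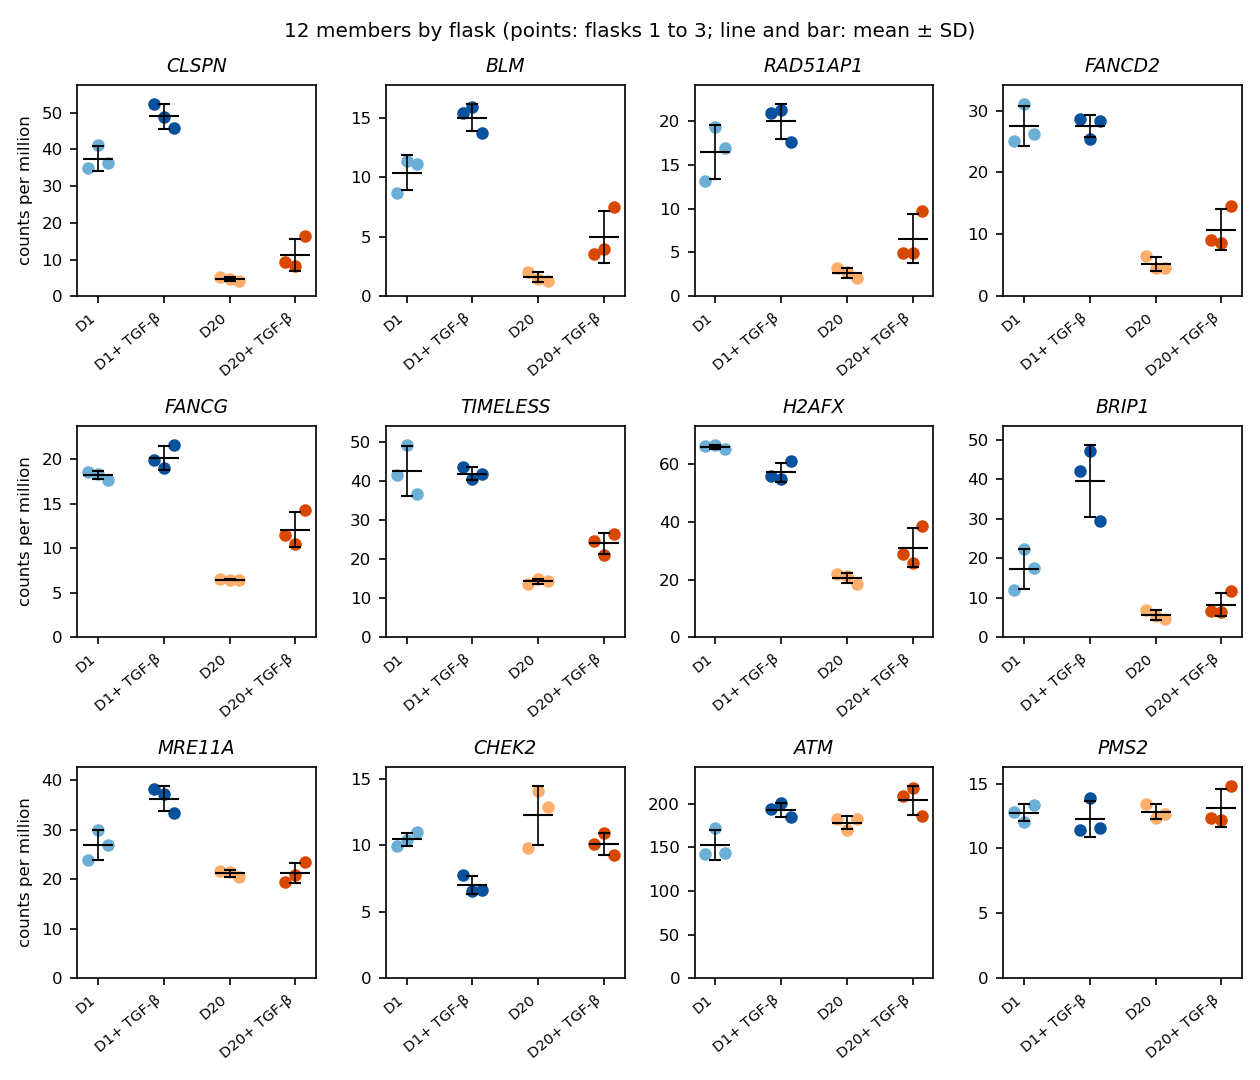
Levels in cpm (vertical axis, from 0) of 12 members in the 3 flasks of each condition, with the mean and SD as a line and bar. CLSPN falls from 34.9 to 41.2 in D1 to between 4.16 and 5.27 in D20, BRIP1 is highest in D1+ TGF-β, FANCG and TIMELESS are higher in D20+ TGF-β than in D20, and PMS2 stays between 11.4 and 14.8 in all 12 flasks.

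Other repair and cell cycle genes were set beside the members. Of 26 S phase genes, those of licensing and DNA synthesis, all 26 were lower in D20 vs D1, with a median log2 fold change of −1.68. All 24 mitosis genes were lower, with a median of −2.77, beside 15.5% of all genes tested. MCM7, a subunit of the replicative helicase, was at 104, 111 and 101 cpm in D1 and at 35.0, 34.3 and 31.1 cpm in D20. TYMS, which makes thymidylate, was at 62.9, 73.4 and 63.3 cpm in D1 and at 22.6, 23.7 and 20.4 cpm in D20. Both were clear of overlap, with log2 fold changes of −1.66 and −1.59. Of the mitosis genes, CDC20, the activator of anaphase, had a log2 fold change of −3.23 ± 0.16 (adjusted p = 1.37e-08, edgeR) and BIRC5, which encodes survivin, of −2.75. CDC20, TTK, AURKB and MKI67 of this list are among the genes the paper tabulates as changed most in D20 vs D1. The lists were chosen with earlier results of these data known, so the fall of the mitosis list is not independent of them. In D20+ TGF-β vs D20 7 of the S phase genes and 23 of the mitosis genes were higher, beside 12.0% of all genes tested. The list medians were 0.46 and 1.49. Without D20+ TGF-β flask 3 these counts were 5 and 23, and the medians 0.25 and 1.26. For CDC20 the log2 fold change with TGF-β on day 20 was 1.80, from 7.91, 9.06 and 7.19 cpm to 27.3, 21.4 and 35.0 cpm.

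The other repair lists and the p53 targets had medians between −0.28 and 0.31 in D20 vs D1, and their counts are read beside 15.5% lower and 16.4% higher over all genes tested. Of 35 further recombination, crosslink and checkpoint genes 13 were lower and 1 higher, led by the phosphatase CDC25A, at −2.12, and the nuclease subunit EME1, at −2.28. Of 20 base excision repair genes 7 were lower, among them the glycosylase NEIL3, at −2.82, and the ligase LIG3, at −0.85. Of 11 non-homologous end joining genes, which rejoin ends without a template, 4 were lower, among them the kinase PRKDC, at −0.50, and the end-binding protein XRCC6, at −0.49. Nucleotide excision repair had 2 of 20 higher and 2 lower, with ERCC1 at −0.57. Translesion synthesis had 2 of 12 higher and 2 lower, with the polymerase POLI at 0.67 and the ligase RAD18 at −0.95. Of 24 p53 target genes 11 were higher and 1 lower, with TP53INP1 at 1.47 and ZMAT3 at 0.68.

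In D20+ TGF-β vs D20 the calls in the other lists are read beside 12.0% higher and 12.8% lower over all genes tested. Base excision repair had 4 of 20 higher and 1 lower, with the endonuclease APEX1 at 0.62 and LIG3 at 0.71. The further recombination, crosslink and checkpoint genes had 5 of 35 higher, with the mismatch repair genes PMS1 at 0.47 and MSH3 at 0.33, and without D20+ TGF-β flask 3 this count was 1. Of the 11 end joining genes RIF1 was higher, at 0.40, and PRKDC, at 0.21, was not called. RIF1 was lost without D20+ TGF-β flask 3. Of the 20 nucleotide excision repair genes RAD23B was lower, at −0.48. Translesion synthesis had 3 of 12 lower, among them the polymerase POLH at −0.43 and the conjugating enzyme UBE2A at −0.30, and the p53 targets had 3 of 24 higher and 5 lower, with TP53I3 at −0.45. Without D20+ TGF-β flask 3 the p53 targets had 1 higher and 5 lower. POLH is in both of the last lists.

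**Figure D5:**
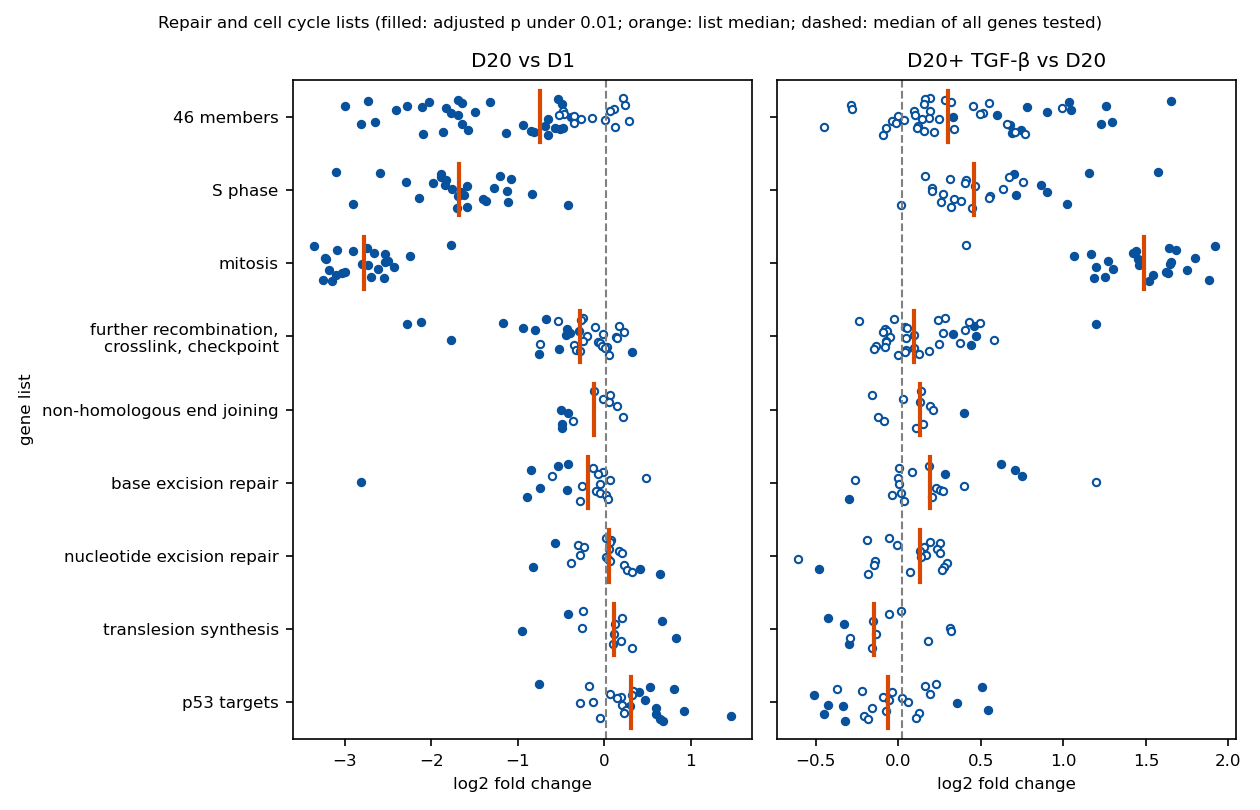
Log2 fold change (horizontal axis) of each gene of the 46 members and of 8 other lists, for D20 vs D1 (left) and D20+ TGF-β vs D20 (right); filled points had an adjusted p under 0.01, the orange bar is the list median and the dashed line the median of all genes tested. The member median of −0.74 lies between those of mitosis (−2.77) and S phase (−1.68) on one side and the other repair lists on the other, and with TGF-β on day 20 the mitosis median of 1.49 is above the 0.30 of the members (1.26 and 0.18 without D20+ TGF-β flask 3).

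Some counts are less certain than others. Another annotated gene overlaps 29 of the 46 members on the opposite strand, and whether the counting used strand is not given in the sources used here. RAD54B shares its strand with FSBP and CHEK1 with STT3A, and PMS2, CHEK2, BRCA1 and FANCD2 have near copies elsewhere in the genome to which reads could be assigned.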

How the data were processed

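Reads were trimmed with Trimmomatic and mapped to hg19 with Rsubread by the authors; the counting program, annotation and strand setting are not given in the sources used here. The authors deposited raw read counts per Entrez gene and lane, and log2 cpm values made by voom for 9412 genes, which hold 32 of the 46 members. Counts of the 4 lanes of a library were summed and tested with edgeR 4.0.16 in R 4.3.3 (quasi-likelihood, TMM factors, 1 mean per condition over all 12 libraries, Benjamini-Hochberg adjustment, threshold 0.01). A gene entered the test (13568 did) when 3 or more libraries reached 1 cpm, because the study's filter (10 cpm, set over the 48 lane columns), adapted here as 10 cpm in 6 libraries, which kept 9490 genes, drops low members. Fold changes are log2 and the SE was derived from the F statistic. RPKM used the canonical GENCODE transcript in place of the planned exon union. In simulated counts, D20 vs D1 recovered 82% of 100 genes changed by 1 on the log2 scale. DESeq2 1.42.0, limma 3.58.1 and other settings were alternatives. Values in every flask were given for the members with the largest and smallest D20 vs D1 change of each role and for those called with TGF-β, with RAD50 and CHEK2 added after their values were seen. Of other genes, the 2 with the smallest adjusted p of each list were named, except 1 that is not reported here. Members and lists were chosen with earlier results of these data known. Intervals and SEs cover the spread between flasks.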

Additional observations from a re-analysis of the deposited data

Results flagged for a closer look

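For 3 of the 46 members the response to TGF-β on day 20 differed from that on day 1 by the test of the difference itself (edgeR). All 3 had a larger value on day 20, beside 3.69% of all genes tested (either direction, 8.22%). At 3 of 46 the members lie near these shares, and the count is not read as a trait of the set. Of these 3 calls, 0 held under every alternative tried. The difference of the log2 fold changes (D20 minus D1) was 0.76 for FANCG, 0.77 for TIMELESS and 0.81 for H2AFX, with adjusted p-values of 0.0056, 0.00385 and 0.00447. On day 1 the log2 fold changes were 0.14, −0.03 and −0.21, none of them called, and on day 20 they were 0.90, 0.75 and 0.60.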

How the results depend on the processing

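No called member changed direction under any alternative, and 30 of the 32 members called in D20 vs D1 and 29 of the 34 called between the TGF-β days were called under every one, against 6 of 13 in D20+ TGF-β vs D20, 0 of 2 in D1+ TGF-β vs D1 and 0 of 3 for the difference of responses. In D1+ TGF-β vs D1 the number of members called was 6 with DESeq2, beside 1755 of all 13568 genes tested. It was 1 with only the 6 libraries compared, with the replicate block or with counts thinned to the smallest library. The share over all genes in the main fit was 11.1%. Apart from DESeq2, the shares of those fits are not given here, so their member counts are not read against them. For the difference of responses the number of members was 5 without composition factors, without a gene filter or with DESeq2. There the share over all genes in the main fit was 8.22%. The shares under those settings are not given here either, and the member counts are not read against them. Treating the 48 lanes as samples, which counts each flask 4 times, gave 20 and 26 members for TGF-β on day 1 and day 20 and 14 for the difference. Over all genes it gave 4537 and 6425 calls for TGF-β on day 1 and day 20, 7199 and 7406 for day 20 against day 1 with and without TGF-β, and 4243 for the difference. In the same order, leaving out 1 flask at a time gave 719 to 2111, 2293 to 4134, 2776 to 5016, 3051 to 4890 and 602 to 1875 genes in all, and 0 to 7, 7 to 16, 29 to 35, 30 to 35 and 0 to 5 members. The cause was not tested. The E2F-like motif was in 5 of 40 members when the window ended at the start, against 5.64% of the tested genes, and in 22 when only 7 letters had to match, against 17.5%; the split between lower and other members was then 3 of 28 against 2 of 12, and 19 of 28 against 3 of 12. Flasks with the same number did not deviate together in most pairs of conditions, and the numbers were not taken as pairs. Between D1 and D20+ TGF-β the deviations from the condition means had Pearson correlations of 0.311 for flask 3, 0.201 for flask 2 and −0.0316 for flask 1. With the replicate block, 1, 12, 33, 31 and 3 members were called.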
